A study of Mus musculus with 18 samples.

Results

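The comparison of postnatal day 21 (P21) with postnatal day 14 (P14) followed the mouse cochlear nucleus over the week after hearing begins. Of 15296 probe sets tested on oligonucleotide arrays, 313 were called, that is, had a limma p under 0.05 after Benjamini-Hochberg adjustment, which is 2.05% of them. Of these, 129 (0.843%) were higher at P21 and 184 (1.2%) were lower. The count rests on few arrays: without P14 replicate 2 no probe set passed, as given in full further on. Genes behind the probe sets are not named, because the tables used here do not pair probe set identifiers with genes.

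The comparison used 5 of the 18 samples of the series, chosen by their labels as the P14 and P21 samples of the MOE430A oligonucleotide array. There were 2 arrays at P14 and 3 at P21. Per the labels, all animals were C57BL/6J pups with no treatment named, and each array received labelled RNA from the cochlear nuclei of 5 pooled pups. A pool averages over its pups, so the spread between arrays does not measure the spread between animals. The labels also do not say that every pool came from other animals. What the p-values measure is then the spread between these pools, which may in part be technical. The label of P21 replicate 1 counts 2 replicates of its age, whereas the labels of replicates 2 and 3 count 3, and all 3 were used. The 3 arrays at P7 entered the fit, which estimates a single spread for all ages, and they are given below as the earlier level of each probe set. The remaining samples of the series were hybridised to spotted cDNA arrays at P7 and P21 and were not used here.

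The cochlear nucleus is where fibres of the auditory nerve end in the brainstem, on its own neurons. In mice, airborne sound begins to drive this pathway around the end of the second postnatal week. Axons are then being myelinated, glial cells mature and synapses are remodelled. The nucleus lies beside the lateral recess of the fourth ventricle. Choroid plexus, the epithelium that secretes cerebrospinal fluid, and meninges can therefore be taken along in a dissection. In RNA from whole tissue, fewer cells of a type and less RNA per cell cannot be told apart.

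A probe set is a group of short probes read together as a single signal. Signals are scaled intensities, with a 2%-trimmed mean of 250.1 on every array. Median signals were 98.7 and 98.8 on the P14 arrays and 102.5 to 108.7 on the P21 arrays. Log2 signals of arrays of the same age correlated at 0.974 to 0.983, and those of a P14 and a P21 array at 0.967 to 0.976 (across probe sets, which are not independent of each other). The ratio of the 5' to the 3' probe set, a measure of how complete the labelled RNA was, lay between 0.889 and 0.977 for beta-actin and between 1.20 and 1.28 for Gapdh on these 5 arrays. The 5' probe set of 18S ribosomal RNA read 43.6 and 38.6 on the P14 arrays and 1197, 944 and 6137 on P21 replicates 1, 2 and 3. All P21 arrays thus carried more ribosomal signal than both P14 arrays, and its part in the differences between the ages was not tested. The P7 arrays read 155, 3530 and 284 with this probe set. Bacterial poly-A RNAs, which are added as controls of labelling, also differed between arrays. P14 replicate 1 carried the dap control, P14 replicate 2 and P21 replicate 1 the lys control, P21 replicate 2 phe and P21 replicate 3 trpn. Poly-A probe sets of controls that an array did not carry read up to 26.6, which serves here as the level of a signal without its target. On P21 replicate 1 the 5' lys probe set read 168 against 2415 for the 3' one, a ratio of 0.0694. The same ratio was 0.599 on P14 replicate 2.

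Choroid plexus carry-over could not be assessed. None of the probe set identifiers matched the gene table at hand (0 of 22690), so the 22 choroid plexus genes, and the other lists among the 34 prepared, could not be located on the array. Whether choroid plexus, meninges or blood took part in any difference below was not tested. The same holds for the check of the labelled tissue against its defining neuronal markers. Probe sets are called fall 1 to fall 15 and rise 1 to rise 15 by the size of their log2 change. Both lists hold probe sets that passed the test and whose P14 and P21 arrays did not overlap.

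Most signals moved little between P14 and P21. The median log2 change over all 15296 probe sets was 0.03, and the median absolute change was 0.19, close to the median standard error of 0.17. Without adjustment, 2969 probe sets had a p under 0.05 (limma). The lowest Benjamini-Hochberg adjusted p was 0.00338. Log2 changes are those of log2(signal + 12.5), which understates the changes of dim probe sets.

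Called rises had a median log2 change of 0.82 (n = 129), and the smallest was 0.45. Of them, 31 reached 1 or more, and 8 stayed under 0.5. The count of 31 was 15 with a constant of 50.01 in place of 12.5, 20 and 17 without P21 replicates 2 and 3, and 0 without P14 replicate 2. Their mean signals had medians of 230 (P7), 255 (P14) and 441 (P21). Called falls had a median log2 change of -0.73 (n = 184), and the smallest absolute change was 0.40. Of them, 43 fell by 1 or more on the log2 scale, and 16 by under 0.5. The count of 43 was 17 with the larger constant, 11 without P14 replicate 1, 21 without P21 replicate 2 and 0 without P14 replicate 2. For these the medians of the mean signal were 638 (P7), 593 (P14) and 357 (P21). Typical changes were therefore below 2-fold in both directions, and the falls came from brighter probe sets than the rises.

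**Figure D1:**
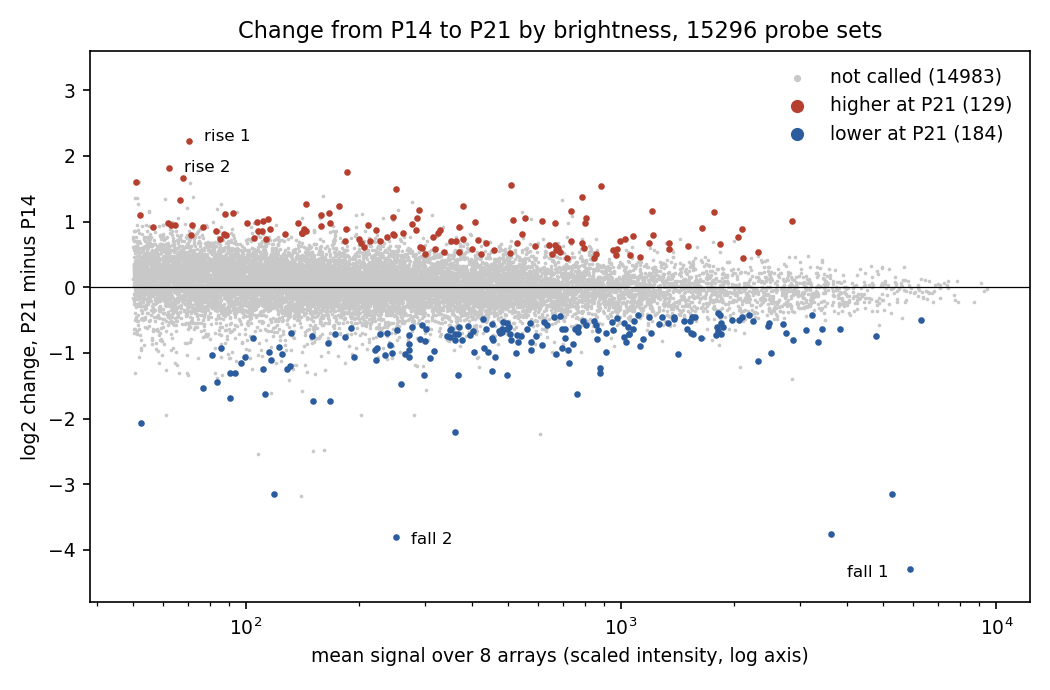
Log2 change from P14 to P21 against the mean signal over 8 arrays (log axis), with 1 point for each of the 15296 probe sets tested. Red points are the 129 called higher at P21, blue points the 184 called lower, and grey points were not called; the largest falls reach further from 0 than the largest rises, and falls outnumber rises among bright probe sets.

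All 129 called rises had every P21 array above both P14 arrays, and all 184 called falls had every P21 array below both. Among all probe sets tested, the same separation was common: 3261 (21.3%) had all P21 arrays above both P14 arrays, and 2566 (16.8%) had them all below. Non-overlap in a design of 2 against 3 arrays is thus a weak criterion by itself.

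Calls were most frequent among bright probe sets. When the probe sets were split by mean signal into 3 parts of about equal size, the brightest part ran from 347 to 9446, and there 190 of 5099 were called (3.73%), 60 higher and 130 lower. In the middle part 73 of 5098 were called (1.43%), 40 higher and 33 lower, and among the dimmest 50 of 5099 (0.981%), 29 higher and 21 lower. The median standard error was 0.13, 0.16 and 0.21 in the same order, so a change of a given size was measured with less error in bright probe sets. As the plot of change against brightness shows, the excess of falls over rises was, in the settings used, a feature of the brightest part. The excess itself depended on the settings. Without a trend in the prior, 60 probe sets were called higher and 61 lower, and without P14 replicate 1 rises outnumbered falls.

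Calls were also counted by suffix, which marks probe sets whose probes match several transcripts. Of those with the x suffix, whose probes can cross-hybridise with unrelated transcripts, 29 of 1071 were called (2.71%). The share was 2.24% for the s suffix (25 of 1115), 2.64% for the a suffix (81 of 3063) and 1.77% for probe sets without one (178 of 10047). Among the leading lists, 2 falls and 3 rises carried the x suffix, and their signals may hold more than a single gene. Fall 7 and rises 12 and 14 carried the s suffix, so their signals may also hold several transcripts.

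Large changes were often poorly measured. A log2 change of 1 or more in either direction was seen in 166 probe sets, 60 rises and 106 falls, and 74 of them were called. The other 92, 29 rises and 63 falls, did not pass. The median SD between arrays of an age was 0.62 on the log2 scale in these, against 0.25 in the 74 that passed. The largest change that did not pass was a fall of -3.18.

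The largest fall was that of 1451580_a_at (fall 1). It read 12576 and 7142 at P14 and 1704, 346 and 173 at P21. On P14 replicate 1 no probe set outside the controls was brighter. All P21 arrays lay below both P14 arrays, but they spread widely, with replicate 1 the highest. The P7 arrays, at 7094, 6245 and 11711, overlapped the P14 arrays. The log2 change was -4.29 (SE 0.72, limma adjusted p = 0.0243), a 19.6-fold difference. It missed the threshold without P14 replicate 1 (-3.88, limma adjusted p = 0.13), without P14 replicate 2 (-4.70, limma adjusted p = 0.14) and without P21 replicate 2 (-4.07, limma adjusted p = 0.0697). Between P21 replicate 1 and P14 replicate 2, the arrays with the same poly-A control, the difference was -2.06.

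Falls 3 and 5 showed the same order of arrays as fall 1. Fall 3 read 6864 and 4091 at P14 and 1189, 282 and 157 at P21, and it changed by -3.76 on the log2 scale (SE 0.62, limma adjusted p = 0.0241). Fall 5 read 8940 and 6250 at P14 and 2492, 747 and 301 at P21, and it changed by -3.15 on the log2 scale (SE 0.62, limma adjusted p = 0.0372). In all 3, P14 replicate 1 was above P14 replicate 2, and P21 replicates 1, 2 and 3 stood in descending order. Both other probe sets carried the x suffix, and whether the 3 probe sets read a single transcript, or a choroid plexus transcript, was not tested. Their P7 arrays also showed the highest signal on replicate 3, at 6687 for fall 3 and 8813 for fall 5. Without P14 replicate 1 fall 3 was -3.39 and fall 5 was -2.90 (limma adjusted p = 0.128 and 0.183), without P14 replicate 2 they were -4.13 and -3.41 (0.14 and 0.2), and without P21 replicate 2 they were -3.56 and -3.08 (0.069 and 0.0954). Fall 5 also missed the threshold without P21 replicate 3 (limma adjusted p = 0.0525) and without P7 replicates 2 or 3 (0.0583 and 0.0544). Fall 5 passed under 7 of 17 alternative settings, fall 3 under 13 and fall 1 under 12.

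A signal on P21 replicate 1 at least 2-fold above both other P21 arrays was rare. It was seen in 42 of 15296 probe sets (0.275%), among them 5 of the 184 called falls and 0 of the 129 called rises. Falls 1, 3, 4, 5 and 12 were those 5. P21 replicate 1 held the smallest fall in each. In falls 1, 3 and 5, which share a profile, the size at P21 thus depended on the array. Fall 4 lay under 26.6, the level of absent poly-A controls, on all P21 arrays. Fall 12 read 38.3, 13.7 and 8.4 there, so in falls 4 and 12 a ratio between arrays says little.

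The next largest fall was that of 1449340_at (fall 2), which went from 556 and 85.5 at P14 to 5.1, 5.8 and 2.3 at P21. All P21 signals were under 26.6, the level of absent poly-A controls, so only the earlier age gave a signal above it. The P14 arrays differed from each other more than 2-fold, and the P7 arrays read 249, 211 and 896. The log2 change was -3.81 (SE 0.70, limma adjusted p = 0.029), and it passed under 8 of 17 alternatives. Without P14 replicate 1 it was -2.54 (limma adjusted p = 0.145) and without P14 replicate 2 it was -5.08 (limma adjusted p = 0.0511). It also missed the threshold without P21 replicate 1, 2 or 3 (limma adjusted p = 0.0519, 0.0749 and 0.0742). Fall 4 had a like profile, with 294 and 102 at P14, 22.5, 3.0 and 4.7 at P21 and 136, 88.8 and 297 at P7. It changed by -3.15 on the log2 scale (SE 0.53, limma adjusted p = 0.025), and by -2.44 without P14 replicate 1 (limma adjusted p = 0.142) and -3.87 without P14 replicate 2 (limma adjusted p = 0.105). It also missed the threshold without P21 replicates 2 or 3 (limma adjusted p = 0.0694 and 0.061).

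Fall 6 was the largest fall among those that passed under 15 of 17 alternatives. Its signal was 261 and 348 at P14 and 38.7, 55.4 and 77.9 at P21, that is 304 ± 61.2 (SD, n = 2) and 57.3 ± 19.7 (SD, n = 3). The P21 arrays were 2.01-fold apart, and all lay below both P14 arrays, and the P7 arrays were higher again at 747, 668 and 695, so this signal was lower at each later age. The log2 change from P14 to P21 was -2.21 (SE 0.22, limma adjusted p = 0.0042). It missed the threshold without P14 replicate 2 (-2.01, limma adjusted p = 0.074).

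Fall 11 was low by P14 and lower at P21. It read 1180, 2266 and 1855 at P7, 275 and 268 at P14, and 72.2, 109 and 62.1 at P21. The log2 change after P14 was -1.63 (SE 0.26, limma adjusted p = 0.0223). It missed the threshold without P14 replicate 1 (limma adjusted p = 0.12), P14 replicate 2 (0.158) or P21 replicate 3 (0.0528). Fall 7 was no lower at P14 than at P7, with 77.3, 49.5 and 49.4 at P7, 74.0 and 127 at P14, and 10.4, 10.7 and 21.6 at P21. All its P21 signals lay under 26.6, so its sizes depend on the added constant. Over the alternatives its log2 change after P14 ran from -2.64 to -1.21. The difference between its later and earlier change ran from -3.41 to -1.67. The log2 change was -2.07 (SE 0.30, limma adjusted p = 0.0151), and -1.72 without P14 replicate 2 (limma adjusted p = 0.158). Its change after P14 was also more negative than its change before P14, by -2.72 (SE 0.54, limma adjusted p = 0.0173), a difference that missed the threshold without P14 replicate 1 (limma adjusted p = 0.0608) and without P14 replicate 2 (limma adjusted p = 0.213).

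The 15 leading falls ran from -4.29 to -1.44, with limma adjusted p up to 0.046. In 12 of them the P21 arrays were more than 2-fold apart, and in 7 the mean P21 signal lay below 26.6. A fold change of a fall that ends at such a level depends on the added constant. Over all called falls, 11 of 184 had a mean P21 signal below that level.

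**Figure D2:**
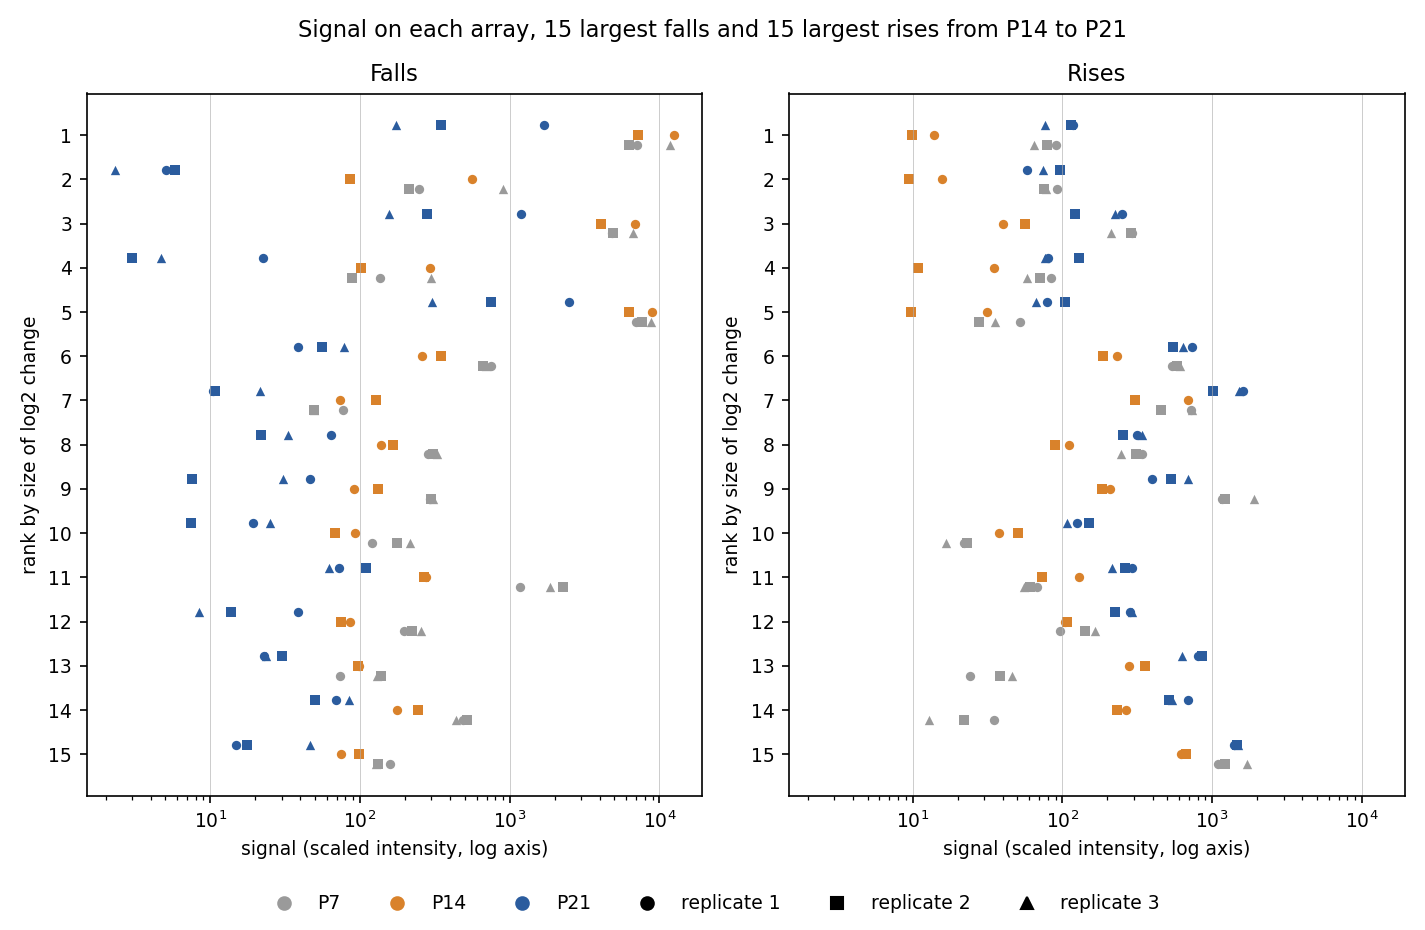
Signal on each array (log axis) for the 15 largest falls (left) and the 15 largest rises (right) from P14 to P21, ranked by log2 change. Colour gives the age and marker shape the replicate; blue P21 points spread widely in falls 1 to 5, while orange P14 points stand alone at the low end in rises 1, 2, 6 and 8.

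A set of probe sets with strong differences between arrays of the same age held part of the large changes. It was chosen after its values were seen: P7 replicate 3 had to be at least 2-fold above both other P7 arrays, and P14 replicate 1 at least 2-fold above P14 replicate 2. There were 32 such probe sets, falls 2 and 4 among them. By contrast, 2 probe sets were 2-fold lower on both arrays, and 3 were high on P7 replicate 3 and low on P14 replicate 1. No test was made of a group chosen this way.

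In this group the median signal was 84.6, 66.3 and 350 on the P7 arrays, 254 and 62.2 on the P14 arrays, and 52.5, 48.3 and 48.8 on the P21 arrays. P14 replicate 2 was close to the P21 level, and P14 replicate 1 stood far above it. The log2 change from P14 to P21 was below 0 in 30 of the 32, with a median of -1.13 and a range from -3.81 to 0.62. With P14 replicate 2 alone as the earlier age the median was -0.24, and 22 of 32 were below 0. With P14 replicate 1 alone it was -1.99. Choosing probe sets with a high P14 replicate 1 raises their P14 mean, so the negative changes and the gap between these medians are partly built in. Of the 32, 2 were called, beside 2.05% of all probe sets, and the median standard error was 0.56. Which transcripts these are, and whether they belong to a tissue beside the nucleus, was not tested.

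**Figure D3:**
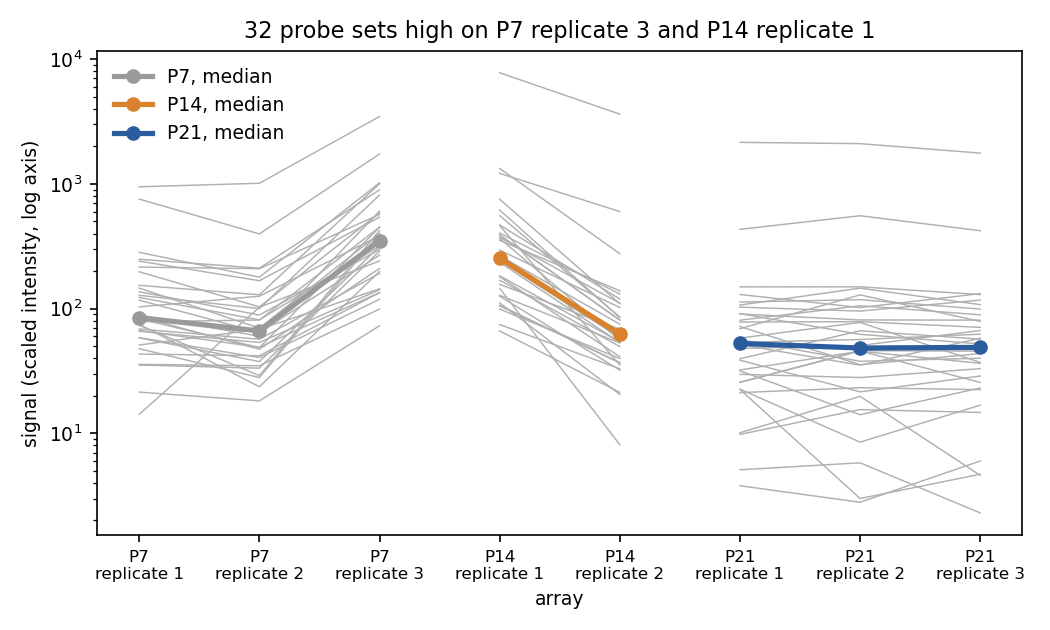
Signal on each of the 8 arrays (log axis) for the 32 probe sets high on P7 replicate 3 and P14 replicate 1. Grey lines are single probe sets, broken between ages, and coloured lines are medians; P14 falls from 254 on replicate 1 to 62.2 on replicate 2, near the P21 medians of 48.3 to 52.5. The high arrays are a product of the choice.

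Leading rises were smaller than leading falls, with P21 arrays closer together. The rises ran from 2.22 down to 1.16, and their P21 arrays were more than 2-fold apart in 1 of 15. The P14 arrays were 3.21-, 3.19- and 2.23-fold apart in rises 4, 5 and 7, and 6.51- and 2.89-fold apart in falls 2 and 4. Rises 4, 5 and 7 passed under 7, 4 and 6 alternatives. The largest rise was that of 1427865_at (rise 1), with 13.8 and 9.9 at P14 and 117, 114 and 76.3 at P21. Both P14 signals lay below 26.6, the level of absent poly-A controls. At P7 it had read 90.3, 79.0 and 64.7, so P14 was the low age. The log2 change from P14 to P21 was 2.22 (SE 0.23, limma adjusted p = 0.00467). Because P14 was at that level, the size depends on the added constant, and it was 1.29 with a constant of 50.01 and 2.86 with 2.5. It missed the threshold without P14 replicate 2 (2.11, limma adjusted p = 0.074).

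Rise 2, 1449693_at, had the same course. It read 91.8, 75.9 and 78.0 at P7, 15.6 and 9.4 at P14, and 57.7, 96.9 and 74.8 at P21. The P21 arrays lay at the P7 level, with both P14 arrays below all others. Its log2 change from P14 to P21 was 1.82 (SE 0.24, limma adjusted p = 0.0147), and 1.64 without P14 replicate 2 (limma adjusted p = 0.137). With the larger and the smaller constant it was 1.01 and 2.40.

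The change after P14 was compared with the change before P14 in the same fit. These changes share the P14 arrays, so a low P14 signal makes the earlier change negative and the later one positive. The probe sets described here were chosen by a called later change, which is part of the difference. The choice pushes the difference in the direction of the later change, so the p-values of the difference are no independent support. Over all probe sets, the difference passed in 1225 (8.01%), of which 624 were more positive after P14 and 601 more negative. The smallest absolute difference called was 0.59. Rise 1 changed by -1.89 from P7 to P14 and by 2.22 from P14 to P21, a difference of 4.11 (SE 0.41, limma adjusted p = 0.00165). Rise 2 changed by -1.92 and then by 1.82, a difference of 3.74 (SE 0.42, limma adjusted p = 0.00222). Both differences kept an adjusted p under the threshold in all 15 alternatives in which they could be tested, and the highest was 0.0412 for rise 1 and 0.0475 for rise 2. Their sizes were less settled, from 2.34 to 5.35 for rise 1 and from 2.08 to 4.92 for rise 2, with the extremes at the larger and the smaller constant.

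Rises 3, 6 and 8 also had their lowest signals at P14. Rise 3 read 290, 288 and 212 at P7, 40.3 and 56.5 at P14, and 252, 121 and 224 at P21, and its later log2 change was 1.75 (SE 0.28, limma adjusted p = 0.0217). Rise 6 read 537, 579 and 614 at P7, 232 and 186 at P14, and 731, 548 and 641 at P21, and it changed by 1.56 on the log2 scale (SE 0.14, limma adjusted p = 0.00338). Rise 8 read 338, 312 and 247 at P7, 111 and 89.6 at P14, and 317, 256 and 341 at P21, and it changed by 1.49 on the log2 scale (SE 0.17, limma adjusted p = 0.00851). In each, the P21 arrays overlapped those of P7. Rise 3 missed the threshold without P14 replicate 1 (limma adjusted p = 0.12), P14 replicate 2 (0.139) or P21 replicate 3 (0.0528). Rises 6 and 8 missed it without P14 replicate 2 (limma adjusted p = 0.0511 and 0.105). Unlike rises 1 and 2, these were above the level of absent controls on every array. The difference between the later and the earlier change was 2.97 for rise 6 (SE 0.26, limma adjusted p = 0.00142) and 2.95 for rise 8 (SE 0.31, limma adjusted p = 0.0017).

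Rise 9 recovered in part. It went from 1159, 1211 and 1917 at P7 to 209 and 184 at P14 and then to 397, 528 and 695 at P21. Every P21 array lay between the P14 and P7 arrays. The log2 change after P14 was 1.37 (SE 0.25, limma adjusted p = 0.029). It missed the threshold without P14 replicate 1 (limma adjusted p = 0.12), P14 replicate 2 (0.215), P21 replicate 2 (0.0749) or P21 replicate 3 (0.0618). Rise 15, at 1087, 1227 and 1698, then 623 and 665, then 1411, 1475 and 1493, was again within its P7 range at P21, with a log2 change after P14 of 1.16 (SE 0.16, limma adjusted p = 0.0151) that missed the threshold without P14 replicate 1 (0.0977) or P14 replicate 2 (0.137).

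Rises 10, 13 and 14 climbed at each age. Rise 10 read 22, 23.1 and 16.6 at P7, 37.5 and 50.6 at P14, and 125, 151 and 108 at P21, with a log2 change after P14 of 1.32 (SE 0.22, limma adjusted p = 0.0243). Rise 13 read 24.1, 38.2 and 46.0, then 280 and 356, then 806, 851 and 629, with a change of 1.23 (SE 0.21, limma adjusted p = 0.0278). Rise 14 read 34.9, 22.2 and 12.9, then 267 and 230, then 690, 513 and 540, with a change of 1.18 (SE 0.24, limma adjusted p = 0.0415). No array of any age overlapped those of another age in these 3 probe sets. All 3 missed the threshold without P14 replicate 1 (limma adjusted p = 0.133, 0.155 and 0.143), without P14 replicate 2 (0.14, 0.14 and 0.263) and without P21 replicate 2 (0.0673, 0.0731 and 0.0765). Without P21 replicate 1, rises 13 and 14 missed it too (limma adjusted p = 0.0515 and 0.0791), and rise 14 also without P21 replicate 3 (0.0843) or P7 replicate 2 (0.0642). Rise 14 passed under 7 of 17 alternatives. Rises 13 and 14 changed less after P14 than before it, by -1.56 (SE 0.38, limma adjusted p = 0.0365) and -1.73 (SE 0.43, limma adjusted p = 0.0381). Both of these differences missed the threshold without P14 replicate 1 (limma adjusted p = 0.124 and 0.255), without P14 replicate 2 (0.29 and 0.178) and without P21 replicate 3 (0.0631 and 0.0715). The difference of rise 13 missed it without P7 replicate 2 (limma adjusted p = 0.0514), and that of rise 14 without P7 replicate 2 (0.059) and without P21 replicate 2 (0.0644). Some P7 signals lay under 26.6, and with a constant of 50.01 both differences were -0.96 and missed the threshold (limma adjusted p = 0.0699 and 0.0678), as they did without a filter and without a trend in the prior.

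The mean P14 signal was below 26.6 in 4 of the 15 leading rises and in 5 of all 129 called rises. For those the fold change depends on the added constant.

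Some calls depended less on the settings than others. Of 17 alternatives to the settings used, 15 called any probe set, and the 313 probe sets passed under a median of 7. A set of 18 probe sets, 10 falls and 8 rises, passed under each of the 15 alternatives, and their smallest absolute log2 change was 0.69. They were collected with these calls in view, so their calls are no independent support. Passing under so many settings also favours probe sets whose arrays of an age lie close together. For some of them the difference between the later and the earlier change is given below. The called later change is part of that difference, so its p-values are no independent support either. Falls 6 and 14 and rises 6 and 8 belong to this set, while falls 1 to 5 and rises 1 to 5 do not.

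In the 10 falls of that set the P21 arrays were at most 2.01-fold apart. In 8 of them the signal was lower at each later age. A clear case read 1614, 1615 and 1473 at P7, 335 and 348 at P14, and 149, 147 and 144 at P21, and its later log2 change was -1.15 (SE 0.10). A brighter case read 4796, 4681 and 4128, then 1777 and 1925, then 970, 905 and 889, a change of -1.0 (SE 0.10). The first of these fell more steeply before P14 than after it, with a difference of 1.0 between the later and the earlier change (limma adjusted p = 0.0129). That difference missed the threshold without P14 replicate 1 or 2 (limma adjusted p = 0.122 and 0.113).

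The 2 other falls peaked at P14. The first read 480, 540 and 463 at P7, 1212 and 1221 at P14, and 608, 574 and 679 at P21. Its change after P14 was -0.96 (SE 0.11), and the difference from the earlier change was -2.24 (limma adjusted p = 0.00142). The other read 1177, 1173 and 1207, then 1479 and 1666, then 999, 919 and 993, a change after P14 of -0.69 (SE 0.10) and a difference of -1.09 (limma adjusted p = 0.00787) that missed the threshold without P14 replicate 1 or 2 (limma adjusted p = 0.0527 and 0.122). In both, each P14 array exceeded every array of the other ages, and the latter ended below its P7 level.

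The 8 rises had P21 arrays at most 1.33-fold apart. Apart from rises 6 and 8, described above, 4 had P14 signals close to or below those at P7 and higher signals at P21. The brightest of these read 2407, 2810 and 2632 at P7, 1961 and 1737 at P14, and 3196, 4116 and 3934 at P21, and it changed by 1.01 on the log2 scale (SE 0.13). Another read 1596, 1439 and 1308, then 1094 and 1169, then 2438, 2457 and 2614, a change of 1.14 (SE 0.10). In the remaining 2 the signal was higher at each later age. They read 175, 157 and 158, then 382 and 307, then 732, 700 and 651, and 775, 763 and 848, then 1479 and 1333, then 2782, 2661 and 2468. Their changes after P14 were 0.99 (SE 0.13) and 0.90 (SE 0.10).

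**Figure D4:**
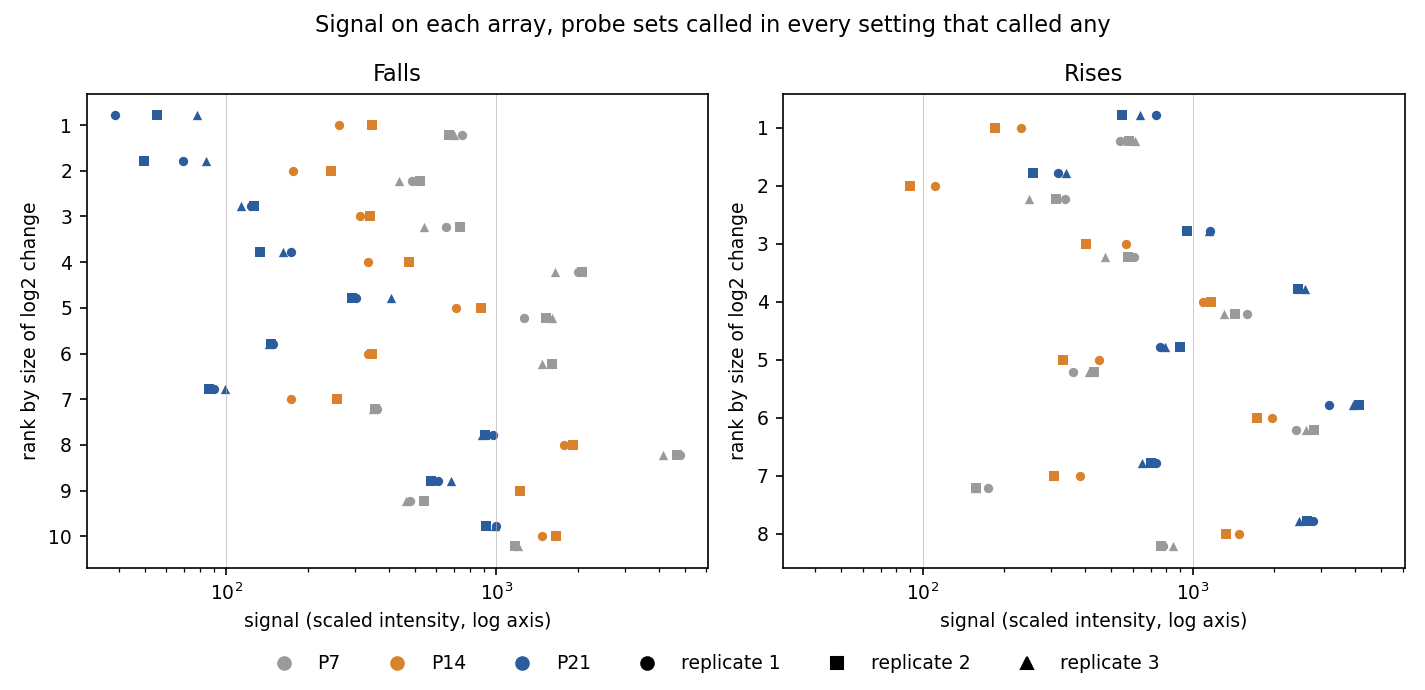
Signal on each array (log axis) for the 10 falls (left) and 8 rises (right) that passed under each of the 15 alternatives that called any probe set, ranked by log2 change from P14 to P21. Colour gives the age and marker shape the replicate. Arrays of an age lie close together, which is in part a product of the choice. The 2 smallest falls peak at P14, and the 2 largest rises have their lowest signals at P14.

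A few transcripts are named by the identifiers of the array's own control probe sets, and these were tested in the same way after the data had been seen. The transferrin receptor takes iron into cells. Its 3' probe set read 349 and 196 at P14 and 159, 176 and 239 at P21, after 74.8, 91.1 and 154 at P7. The P14 and P21 arrays overlapped, and the log2 change was -0.45 (SE 0.30, limma adjusted p = 0.452). It had changed by 1.26 from P7 to P14 (SE 0.30, limma adjusted p = 0.011), and by 0.86 without P14 replicate 1 (limma adjusted p = 0.125). Its middle probe set read 72.1 and 53.2 at P14 and 27.3, 38.7 and 47.9 at P21. Those arrays did not overlap, but the log2 change of -0.58 (SE 0.27, limma adjusted p = 0.263) did not pass. The 5' probe set gave -0.10 (SE 0.28, limma adjusted p = 0.881).

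Pyruvate carboxylase, a mitochondrial enzyme that in brain is found mainly in astrocytes, changed little after P14. Its 3' probe set read 309 and 321 at P14 and 351, 342 and 364 at P21, after 230, 245 and 232 at P7. Every P21 array lay above both P14 arrays, yet the log2 change of 0.16 (SE 0.11, limma adjusted p = 0.463) did not pass. From P7 to P14 it was 0.40 (SE 0.11, limma adjusted p = 0.0186), a call that was lost without P14 replicate 1 (limma adjusted p = 0.0806), P14 replicate 2 (0.118) or P7 replicate 3 (0.0531). The 3' probe sets of beta-actin, a cytoskeletal protein, and of Gapdh, a glycolytic enzyme, are used as loading references. Beta-actin read 7560 and 7270 at P14 and 5113, 7631 and 7943 at P21. Gapdh read 6594 and 5974 at P14 and 5023, 6978 and 7247 at P21. The arrays of both ages overlapped in both, and P21 replicate 1 was the lowest of its age.

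The number of calls depended strongly on single arrays, and so did the calls of the 15 leading falls and 15 leading rises. Without P14 replicate 2 limma called 0 probe sets (1757 at an unadjusted p under 0.05), and without P14 replicate 1 it called 41. In both of these fits the remaining P14 array was assumed to vary like the arrays of the other ages. Leaving out P21 replicate 2 left 80 calls, P21 replicate 3 left 109 and P21 replicate 1 left 238. Of the leading probe sets, 10 were still called without P14 replicate 1 and 0 without P14 replicate 2, with 22, 14 and 15 called without P21 replicates 1, 2 and 3. Leaving out a P7 array, which changes only the estimate of the spread, gave 463, 134 and 181 calls for replicates 1, 2 and 3. With a block for the poly-A control, 0 were called (2070 at an unadjusted p under 0.05). Such a fit compares arrays within a control, and lys was the only control found at both P14 and P21, on 1 array of each age. Between those arrays all 15 leading falls stayed below 0, from -2.81 to -0.78, and all 15 leading rises above 0, from 1.06 to 2.53, as their non-overlapping arrays require.

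**Figure D5:**
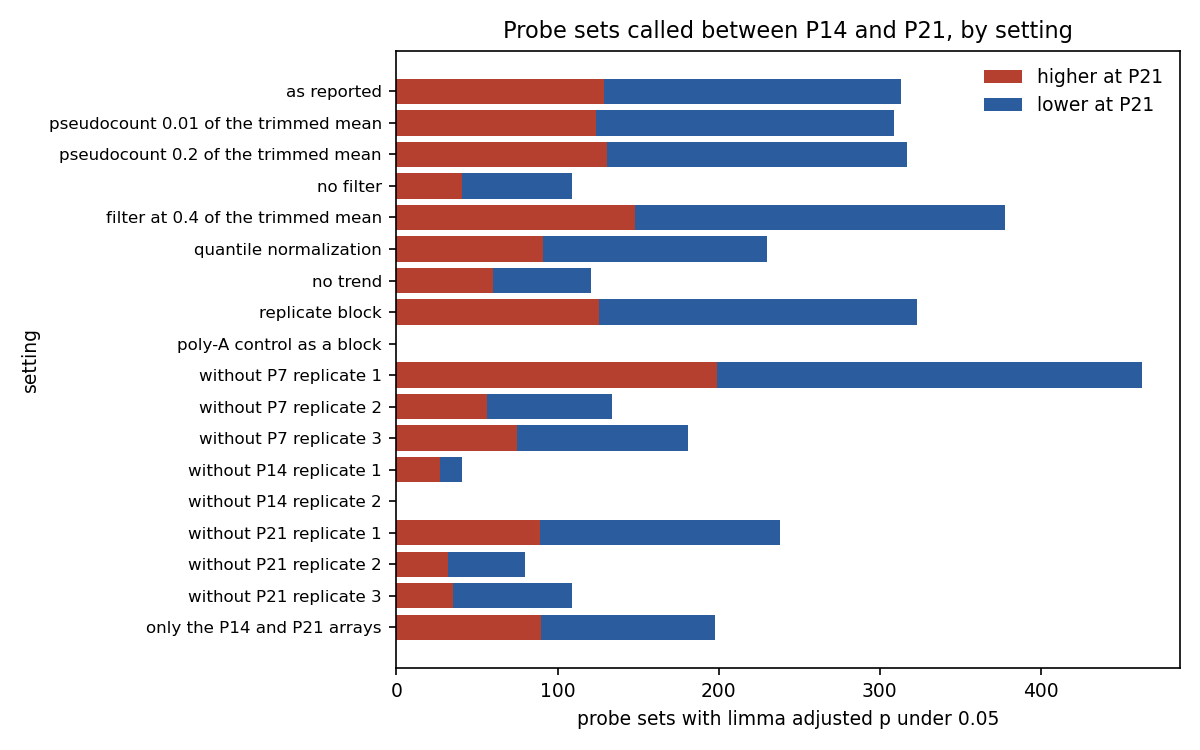
Number of probe sets with a limma adjusted p under 0.05 between P14 and P21, as reported and under each of 17 alternatives. Red bars count rises and blue bars falls; the total is 313 as reported and ranges from 0, without P14 replicate 2 or with a poly-A control block, to 463 without P7 replicate 1.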

How the data were processed

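RNA of pooled cochlear nuclei was measured on 8 oligonucleotide arrays. The authors deposited a scaled intensity for every probe set. GCOS, software of the array's maker, is named in the submitters' processing notes. Further steps before deposit are not given in the sources used here. Each array was set to a 2%-trimmed mean intensity of 250.1, which barely moved the values. The 64 control probe sets and those with a mean signal under 50.0 were left out, which left 15296 of 22690. The constant added before log2 was 12.5. A limma fit (limma 3.58.1, R 4.3.3; lmFit, eBayes with a trend) held all 8 arrays with a coefficient per age. Two-sided p-values were adjusted by Benjamini-Hochberg over all probe sets tested, and 0.05 was the threshold. The procedure was also run on simulated data, and no result of that run is used here. The simulated noise was independent for each probe set and array, so deviations shared by many probe sets of an array were not covered.

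Leading probe sets were the 15 largest changes in each direction among those called with non-overlapping arrays, and at most 2 identifiers each way were printed. Members and lists were chosen with earlier results of these data known. The 34 gene lists could not be matched to probe sets, so no list has a result. Alternatives covered the constant, the filter, quantile normalization, the prior, blocks and left-out arrays. Arrays have no read depth, and their number limits the precision.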

Additional observations from a re-analysis of the deposited data

Results flagged for a closer look

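The change after P14 differed from the change before P14 for both of the largest rises. For rise 1 (1427865_at) the difference between the later and the earlier log2 change was 4.11 (SE 0.41, limma adjusted p = 0.00165), and for rise 2 (1449693_at) it was 3.74 (SE 0.42, limma adjusted p = 0.00222). Both probe sets were chosen for a large called change after P14, which is part of this difference. The choice thus favours a positive difference, and its p-values are no independent support. The 2 changes of a probe set share the P14 arrays, and both P14 signals of either probe set lay below 26.6, the level of poly-A controls that were not on an array. The sizes therefore depend on the added constant and ran from 2.34 to 5.35 and from 2.08 to 4.92 over the alternatives.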

How the results depend on the processing

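The 313 calls between P14 and P21 fell to 109 without a filter, to 121 without a trend in the prior, to 198 with only the P14 and P21 arrays and to 0 with a poly-A control block. Leaving out single arrays gave 0 to 463. The 1225 calls of the difference between the later and the earlier change became 793 without a trend and 68 with the poly-A control block, and 53 to 1170 with single arrays left out, the fewest without P14 replicate 2. Without a filter more probe sets share the adjustment. A fit without an array has fewer samples, yet without P7 replicate 1 there were more calls between P14 and P21, not fewer. What caused these shifts was not tested. Both counts stayed within 1.5 times under the other constants, the stricter filter and quantile normalization (230 and 941). The larger constant did lower the number of called changes of 1 or more, to 15 rises and 17 falls.

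The labels give P14 and P21 the same replicate numbers but no shared source. Deviations of same-numbered arrays correlated at 0.01 and 0.00, so the numbers were not taken as pairs. With the replicate number as a block (replicate block), 323 probe sets passed, 126 higher and 197 lower, of which 223 were among the 313, and the difference between changes passed in 1177.

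Among the values listed for leading probe sets, steady probe sets and named transcripts, those that changed sign belonged to the 5' probe set of the transferrin receptor, at 0.02 without P14 replicate 1 and 0.11 without P21 replicate 1; over all arrays left out singly it ran from -0.34 to 0.11. Groups of 2 and 3 arrays are too small for a test of outlying arrays. The control transcripts and the group of 32 probe sets were added after seeing the data. So was the choice to keep the same 15296 probe sets when an array is left out, in place of filtering anew, which moved the counts slightly and changed which probe sets pass under each alternative. Differences between changes that did not pass, and changes of the other control probe sets, are not reported as results and not listed here; several lie near 0 and change sign between settings.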
